A study of Arabidopsis thaliana with 24 samples.

Results

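A set of 35 Arabidopsis genes had higher transcript levels in the petiole base when far-red light (FR) reached the whole rosette. When far-red reached the leaf tip alone, the same base lay at most slightly above control, and above it for 28 of the 35. These genes were chosen from 16746 probe sets that the platform annotation pairs with 1 gene. The choice used group means on the log2 scale, where a difference of 1 is a doubling of signal. A member had a difference of at least 1.2 between whole FR and control in the petiole base, a difference below 0.4 between local FR and control there, a whole FR difference between -0.7 and 0.7 in the leaf tip, and a mean of at least 4 in its highest group. Of the 16746, 291 (1.74%) met the first limit, 84 of these the second and 64 of those the third. EXPB1 and WES1 met these limits, at whole FR differences of 2.43 and 1.41, and were left out by name, as were HYH and the TUB and CSLC genes wherever they stood. The values that chose the members are given as a description, with no test.

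The study measured 24 arrays in 8 groups of 3 independent biological replicates. Each leaf gave a leaf tip sample, the top 2.5 mm of its blade, and a petiole base sample, the lowest 1.5 mm of its stalk, taken from the fifth-youngest leaf 5 h into the treatment of plants aged 28 d. Control plants stayed in white light with a ratio of red to far-red (R:FR) of 2.3. Local FR lowered that ratio to 0.05 at the tip, Whole FR lowered it to 0.05 over the entire rosette, and Touch kept the control light. How many leaves or plants made up a sample is not given in the sources used here. All groups had photosynthetic light of 140 µmol per square metre and second for 9 h a day at 20 °C, and the genotype or accession is not given in the sources used here. The marker SWEET11, a sucrose transporter gene of leaf blades, had group means of 8.70 to 9.12 in the tip and 1.27 to 1.58 in the base. The other lamina markers measured differed less between the tissues. LHCB4.2 had group means of 8.78 to 8.97 in the tip and 7.06 to 7.89 in the base. FMA had 5.56 to 5.85 in the tip and 4.59 to 5.22 in the base. AUR1, a mitotic kinase gene, had group means of 5.15 to 6.07 in the base and 2.88 to 3.38 in the tip. Of the marker genes listed, 3 of 7 for the lamina tip, 1 of 7 for the petiole base, 2 of 3 for roots, and none of 8 for vasculature or 5 for epidermis had a named probe set. PYK10, a beta-glucosidase gene listed for roots, had base means of 10.025 to 10.659 and tip means of 1.81 to 2.34, and the other root gene lay at 1.01 to 1.55 in all groups.

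Far-red enrichment is the light that leaves of neighbouring plants reflect and pass on. It shifts the photoreceptor phytochrome to its inactive form, which releases phytochrome interacting factors to act on growth genes. In rosette plants this is known to raise auxin synthesis in the leaf blade and to bring elongation and upward bending of the petiole, where cell walls have to yield. The petiole can also perceive far-red itself, and the whole FR treatment lit it while the local treatment did not. Whole FR also lit the rest of the blade and the other leaves. Which of these parts matters for the set cannot be told apart in this design.

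Of the 35 genes, 5 carry a symbol in the reference gene table, and they are described first, by role. EXO (EXORDIUM) codes for a secreted protein of the extracellular matrix that promotes cell expansion and is known as a brassinosteroid response gene. In the petiole base its levels were 1.62, 1.35 and 2.17 in the control arrays, 1.59, 1.62 and 1.84 under local FR, and 1.27, 1.19 and 1.52 under touch. Under whole FR they were 4.74, 4.29 and 4.65. The 3 whole FR arrays stood far above the other 9 base arrays, which overlapped each other, and all 12 leaf tip arrays lay between 0.80 and 1.96. The difference of group means was 2.85, a 7.20-fold higher signal, from 1.71 ± 0.42 to 4.56 ± 0.24 (SD, n = 3). The control level lies between the 25th percentile (1.17) and the median (2.69) of single-gene probe sets in the control base, so the fold may understate the true one.

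GH9C3 belongs to glycosyl hydrolase family 9, whose plant members are endoglucanases that cut cellulose and related wall glucans. Its base levels were 3.10, 1.79 and 3.61 in control, 2.06, 2.21 and 3.08 under local FR, 1.54, 2.51 and 2.26 under touch, and 5.26, 4.90 and 5.41 under whole FR. The control arrays differed widely among themselves, with replicate 2 the low one, and they overlapped both the local FR and the touch arrays. No whole FR array overlapped any of these. The difference was 2.36 from a control mean of 2.83 ± 0.94 (SD, n = 3), and the tip arrays lay between 1.197 and 2.472.

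TBL37 is a member of the TRICHOME BIREFRINGENCE-LIKE family, whose characterised members add acetyl groups to wall polysaccharides. In the base it stood at 4.73, 5.49 and 4.60 in control, 5.01, 4.94 and 4.66 under local FR, 5.24, 5.12 and 4.76 under touch, and 6.20, 6.60 and 6.41 under whole FR. The tip arrays were lower, between 2.83 and 4.15, without overlap with the base. The whole FR difference was 1.46 in the base and -0.10 in the tip.

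MSRB9 codes for a methionine sulfoxide reductase, an enzyme class that repairs oxidised methionine in proteins. It had the largest whole FR difference of the set, 2.90, from 4.17 ± 0.22 to 7.07 ± 0.29 (SD, n = 3). Its base arrays read 4.07, 4.02 and 4.42 in control and 7.13, 6.76 and 7.34 under whole FR. Under local FR they read 4.08, 5.44 and 3.99, so that replicate 2 alone stood above all control arrays, and the group difference was 0.33. The touch arrays spread widely, at 4.68, 3.45 and 2.79, and no whole FR array overlapped either group.

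TCP15 codes for a TCP-class transcription factor, a family that controls cell division and growth in leaves and stems. Its base levels were 5.47, 5.48 and 5.71 in control, 5.76, 6.24 and 5.77 under local FR, 5.96, 5.63 and 5.47 under touch, and 6.97, 6.56 and 7.07 under whole FR. All 3 local FR arrays lay above all 3 control arrays, yet below all whole FR arrays. The difference was 1.31 for whole FR and 0.37 for local FR in the base, and -0.02 for whole FR in the tip.

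**Figure D1:**
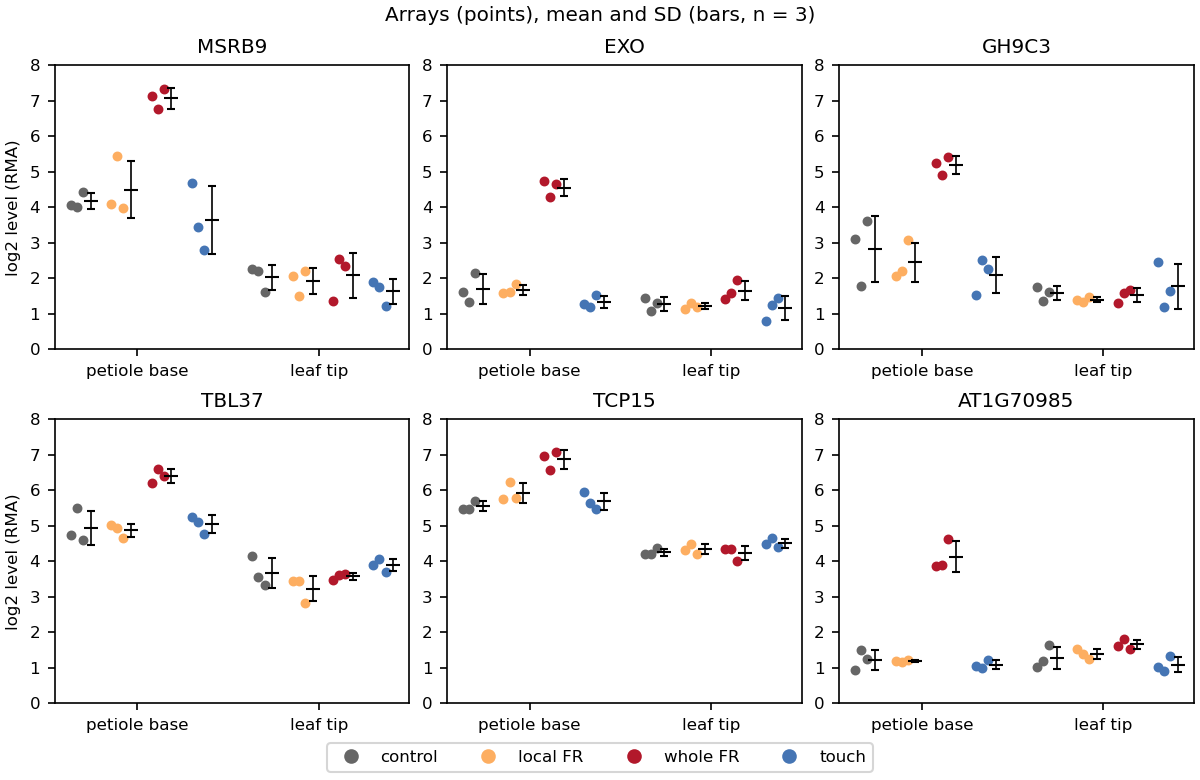
Log2 level on each array (points) with mean and SD (bars, n = 3) for the 5 members with a symbol and for AT1G70985, by tissue and treatment. The whole FR arrays of the petiole base stand apart in each panel, while the 12 leaf tip arrays of each gene stay low or near each other.

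The other 30 members are known here by locus name only, and no role is given for them. AT1G70985 resembled EXO, with base levels of 0.95, 1.51 and 1.24 in control and 3.86, 3.90 and 4.63 under whole FR. All its other base arrays lay between 0.95 and 1.51, and its tip arrays between 0.90 and 1.81, all at the low end of the signals. With EXO it was 1 of 2 members whose control base mean was below 2. Neither a fall below control nor a difference among the low groups could show well at such levels.

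The next differences among these loci were smaller. AT4G16670 read 3.93, 3.72 and 4.22 in the control base and 5.885, 6.024 and 5.504 under whole FR, a difference of 1.85. AT5G40980 read 3.77, 3.69 and 3.06 in control and 5.05, 5.19 and 5.09 under whole FR, a difference of 1.60, and its tip arrays lay between 1.51 and 2.31. In both genes the local FR and touch arrays of the base stayed below all whole FR arrays. AT1G78230, AT1G05835 and AT5G23750 differed by 1.55, 1.55 and 1.53, and AT2G27500, AT1G09575, AT1G25230 and AT5G01015 by 1.49, 1.47, 1.46 and 1.45. In all, 4 members differed by at least 2 and 26 by less than 1.5, so most of the set lay close above the limit of 1.2. The median difference was 1.38. AT1G51580, AT4G24805 and AT4G27280 lay next to the median, at 1.38, 1.37 and 1.36. AT2G41150, AT1G18740 and AT1G34630 followed at 1.29, 1.28 and 1.26.

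The set spanned low and high control levels. The members with the highest control base means were AT1G25230, AT3G07470 and AT1G19450, at 7.51, 7.28 and 6.97, and they differed by 1.46, 1.42 and 1.203. Of the 35, 6 had a control base mean of at least 6, and 18 lay between 3 and 5. AT1G12990 varied little between replicates, with SDs of 0.05 in control and 0.04 under whole FR, around means of 6.54 and 7.80. Its local FR arrays, at 6.93, 6.96 and 6.88, lay together between those groups and overlapped neither.

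In the base, the lowest whole FR array lay above all 9 other base arrays for all 35 members. Over all single-gene probe sets 6.40% did so, but the rule chose the members on this very contrast, so nothing is read from the count. For 33 members the 3 whole FR arrays of the base also lay above all 21 other arrays of both tissues, against 4.72% of single-gene probe sets. The exceptions were AT1G61890 and AT3G27540. The limits of the rule favour this count as well, so nothing is read from it either. Taken over the members, the median departure from the control mean was 1.36, 1.41 and 1.45 on the 3 whole FR arrays. It was 0.13, 0.33 and 0.22 on the local FR arrays and 0.12, -0.16 and -0.06 on the touch arrays, so the whole FR arrays were alike and the local FR arrays all leaned slightly upward.

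**Figure D2:**
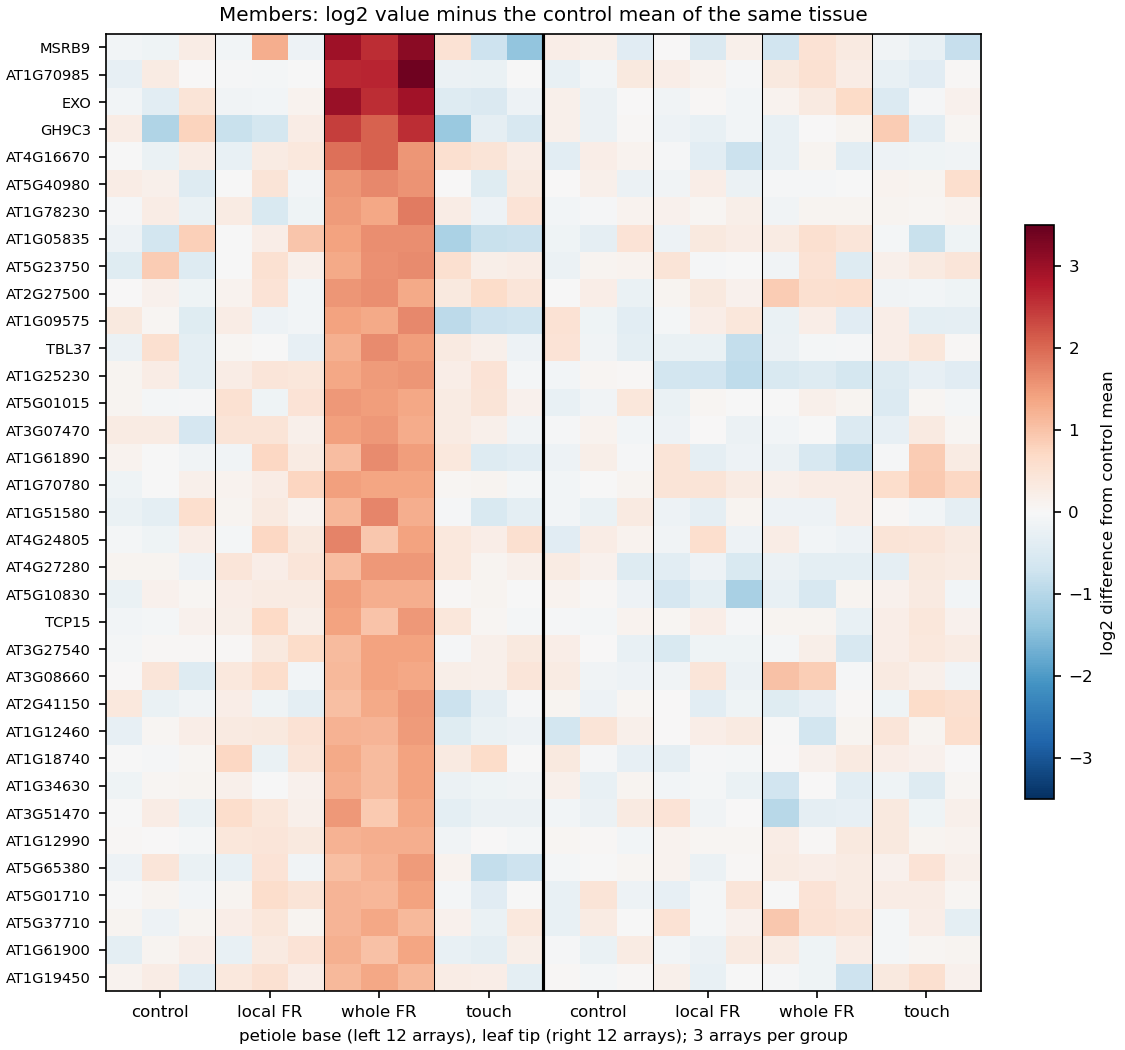
Log2 value minus the control mean of the same tissue for the 35 members (rows, ordered by whole FR difference in the base) on 24 arrays (columns). The column block of whole FR in the petiole base is raised throughout, at 0.92 or more on each array, and the leaf tip side of the plot shows no block of that kind, with values from -1.14 to 1.02.

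The working description of the set, raised by whole FR alone, was checked against the local FR arrays. Local FR minus control in the base was above 0 for 28 of the 35 members and below 0 for 7. Its median was 0.29, against -0.01 over all single-gene probe sets and 0.59 over the 291 that met the whole FR limit. The limit of 0.4 capped the members, and 15 of them lay between 0.3 and that limit. The members nearest below the limit were AT3G51470, AT1G05835 and AT5G01710, each at 0.39, and the loci just past it were AT2G19880, AT1G67050 and AT3G59350, each at 0.41. The set therefore has no gap between it and genes that also differed under local FR, and the word alone describes the limit of 0.4 and not an absence of any local FR difference. Both differences are taken from the same 3 control arrays.

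Since that limit was set on these values, the members were chosen again from 2 replicate numbers at a time, and the third was read as a difference of single arrays. This gave 39, 39 and 34 genes, of which 19, 20 and 18 were among the 35. On the held-out arrays whole FR exceeded control in all of them, with medians of 1.28, 1.38 and 1.58, against 1.41, 1.50 and 1.41 on the arrays that chose them and 0.01, -0.01 and 0.01 over all single-gene probe sets. Of the held-out whole FR differences, 23 of 39, 22 of 39 and 28 of 34 were at least 1.2. The median local FR difference was 0.20, 0.19 and 0.19 on the arrays that chose the genes and 0.27, 0.40 and 0.46 on the held-out arrays. Of the held-out local FR differences, 27 of 39, 20 of 39 and 16 of 34 stayed below 0.4. So the median whole FR difference was smaller on the held-out arrays in 2 of the 3 splits, and the median local FR difference was larger there in all 3. The limits were set with earlier results of these data known, so the held-out arrays are not independent of the rule. In each split both held-out differences subtract the same single control array. The counts are of genes and not of replicates.

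**Figure D3:**
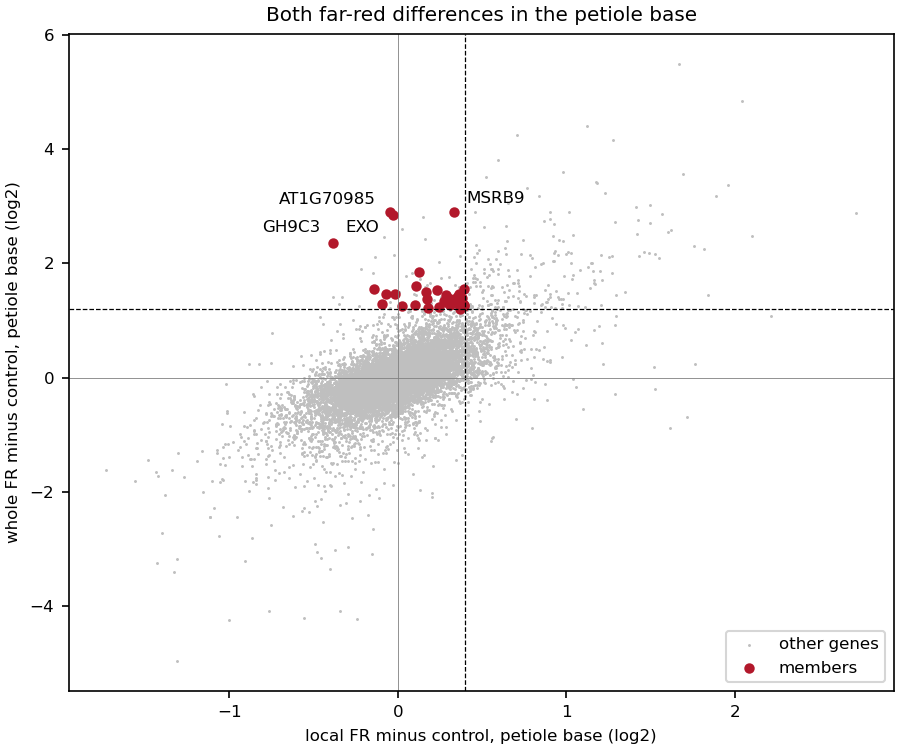
Whole FR minus control against local FR minus control in the petiole base, both as differences of log2 group means, for 16746 single-gene probe sets (grey) and the 35 members (red), with the limits of 1.2 and 0.4 dashed. Members crowd against the local FR limit, where 15 of them lie at 0.3 or above, and GH9C3, at -0.38, lies farthest to the left.

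The membership of single genes rested on small margins. When each array was left out in turn, the number chosen ran from 33 to 44. The 8 members chosen every time were EXO, GH9C3, AT4G16670, AT5G40980, AT1G78230, AT1G09575, TBL37 and AT5G10830. MSRB9 was not among them. At the whole FR limit, AT1G19450, AT1G61900 and AT5G37710 lay just inside at 1.203, 1.221 and 1.231, and AT2G21195, AT1G70280 and AT5G26740 just outside at 1.199, 1.196 and 1.185. At the leaf tip limit the nearest inside was AT2G27500, at 0.68, and the nearest outside were AT5G41900 at 0.76 and AT3G04010 at 0.78, followed by EXPA9 at 0.97. On the lower side of the tip limit AT1G25230, AT1G61890 and AT3G51470 lay inside at -0.54, -0.53 and -0.52, and AT1G11410 outside at -0.83. At the limit on the highest mean AT1G70985, AT2G41150 and AT4G27280 lay inside at 4.13, 4.16 and 4.42, and AT1G52540, AT5G38010 and AT5G08350 outside at 3.99, 3.96 and 3.94.

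The named members were then set beside genes that share their symbol stem, a comparison added after the members were known and given without a test. The members were chosen on the difference compared here, so nothing is read from their rank. Of 5 other MSRB genes with a probe set, none was at least 1 higher under whole FR in the base. MSRB4 went the opposite way to MSRB9, with base levels of 3.91, 3.51 and 4.59 in control and 1.59, 1.78 and 1.34 under whole FR, a log2 difference of -2.44. Its local FR difference was -1.11, and in the tip its whole FR difference was -0.22. Genes of such families have similar sequences, and whether their probes bind each other's transcripts was not tested.

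Among 18 other GH9 genes none was at least 1 higher or lower, and only 5 had a mean of at least 2 in the control or whole FR base. GH9B5 came closest to GH9C3, with a difference of 0.94 from 4.29 ± 0.31 to 5.23 ± 0.08 (SD, n = 3). Among 22 other TBL genes 1 was at least 1 higher, TBL39, which differed by 1.38 under whole FR and by 0.50 under local FR, and so lay past the local FR limit. The other TCP gene with a named probe set, TCP1, had a whole FR difference of -1.89, from 4.95 ± 0.15 (SD, n = 3) to 3.06 ± 0.20. EXO had no such relative with a named probe set.

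**Figure D4:**
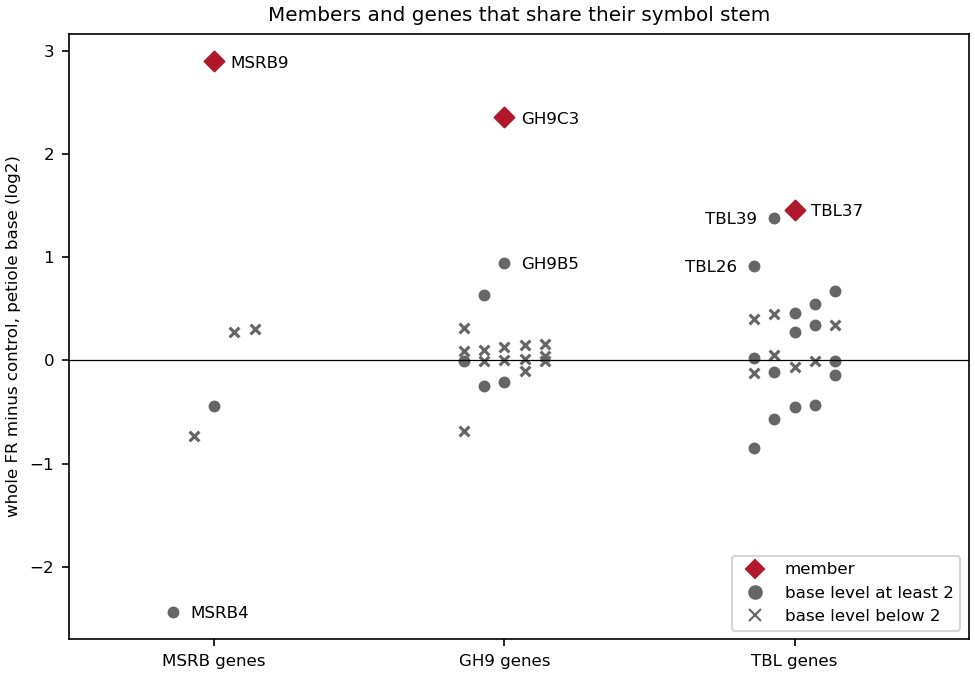
Whole FR minus control in the petiole base, as a difference of log2 means, for MSRB9, GH9C3 and TBL37 (diamonds) and the genes sharing their symbol stem. Circles mark relatives with a mean of at least 2 in the control or whole FR base, and crosses those below. Each member lies at the top of its column, a place that its choice on this same difference favours, and MSRB4 lies at the bottom at -2.44.

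Touch, which changed no light, was the first comparison the rule did not use, although in the base it shares the 3 control arrays with the rule. AT1G09575 read 3.78, 3.51 and 3.03 in the control base and 2.53, 2.72 and 2.74 under touch. Its difference was -0.78 (SE 0.23, limma adjusted p = 0.158). AT1G05835 read 5.12, 4.66 and 6.14 in control and 4.2, 4.54 and 4.54 under touch. Its difference was -0.88 (SE 0.30, limma adjusted p = 0.223). AT2G27500 lay the other way, at 3.19, 3.34 and 3.02 in control and 3.52, 3.83 and 3.61 under touch. Its difference was 0.47 (SE 0.15, limma adjusted p = 0.194). Under whole FR AT1G09575 and AT1G05835 stood above control, at 4.91 ± 0.18 and 6.85 ± 0.13 (SD, n = 3). None of the 35 members was called for touch against control in the base by limma at a Benjamini-Hochberg adjusted p below 0.05, where 0.211% of the 17504 probe sets were called, and 4 had an unadjusted p under 0.05. The median difference was 0.03, with 18 members above 0 and 17 below, and a range of -0.88 to 0.47. Over all probe sets the median was -0.01. That no member was called depends on 1 array. Without control petiole base replicate 2, AT1G05835 and GH9C3 were called, at -1.20 (adjusted p = 0.0346) and -1.25 (adjusted p = 0.0415), and the calls over all probe sets went from 37 to 483. In the same touch base arrays AUR1 stood at 5.15 ± 0.05 (SD, n = 3) against 6.07 ± 0.69 in control, and FMA, a guard cell gene, at 5.22 ± 0.13 against 4.59 ± 0.21. Their part in the result was not tested.

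In the leaf tip few members passed a test. Under touch AT1G70780 rose by 0.75 (SE 0.14, limma adjusted p = 0.0151), from 6.23, 6.30 and 6.43 in control to 6.92, 7.24 and 7.05, and 34 members did not pass the test, where 0.246% of probe sets were called, 0.154% as higher. That call was lost without control leaf tip replicate 1 (adjusted p = 0.0624) and without touch leaf tip replicate 2 (adjusted p = 0.105). In the base the same gene differed by 1.39 under whole FR and stood at 6.72 ± 0.15 in control and 6.76 ± 0.09 under touch (SD, n = 3).

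Local FR lit the tip itself, and there 2 members fell against the control tip arrays, which the tip limit of the rule and the touch comparison also use. AT1G25230 fell by 0.75 (SE 0.15, limma adjusted p = 0.00572), from 6.25, 6.41 and 6.40 in control to 5.70, 5.67 and 5.45. Under whole FR it stood at 8.97 ± 0.10 (SD, n = 3) in the base, above its control mean there of 7.51. In the tip it lay below control under the other treatments too, by differences of -0.54 for whole FR and -0.38 for touch (limma adjusted p = 0.381 for touch), and local FR differed from touch by -0.36 (limma adjusted p = 0.345). AT5G10830 fell by 0.69 (SE 0.18, limma adjusted p = 0.0443), from 4.08, 4.02 and 3.79 to 3.38, 3.62 and 2.82, with local FR replicate 3 the lowest. Without that array its difference was -0.46 (adjusted p = 0.257), and it was also not called without control leaf tip replicate 1 (adjusted p = 0.152), control replicate 2 (adjusted p = 0.116) or local FR replicate 1 (adjusted p = 0.0662). The remaining 33 members did not pass the test, where 2.05% of probe sets were called, 0.880% as lower. The median over the members was -0.02, as it was over all probe sets.

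Local FR against touch in the tip uses 6 arrays that entered none of the contrasts of the rule. AT5G10830 was lower under local FR there too, against touch levels of 4.10, 4.27 and 3.88, by a log2 difference of -0.81 (SE 0.18, limma adjusted p = 0.0188), and it was the only member called, where 1.38% of probe sets were, 0.628% as lower. Both comparisons of this gene use the same local FR arrays. Its call was lost without local FR leaf tip replicate 3 (adjusted p = 0.137), touch leaf tip replicate 1 (adjusted p = 0.0725) or touch leaf tip replicate 2 (adjusted p = 0.122). The median of the members was -0.17, with 25 below 0 and 10 above, against 0.00 over all probe sets.

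How the members were placed along the leaf was tested on the touch arrays, which enter no contrast of the rule, although their group means count toward its limit on the highest mean. MSRB9 was higher in the base, at a tip minus base difference of -2.01 (SE 0.40, limma adjusted p = 0.000551), with 1.90, 1.77 and 1.23 in the tip. AT1G05835, AT1G25230 and AT3G08660 were higher in the base with differences of -1.82, -1.75 and -1.69. So were AT5G40980, TCP15 and TBL37, at -1.48, -1.18 and -1.15. AT3G27540 lay the other way, higher in the tip by 2.16 (SE 0.18, limma adjusted p = 6.379e-09), at 5.14, 5.28 and 5.19 against 2.84, 3.06 and 3.22 in the base. AT1G61890, AT1G78230 and AT1G12460 were higher in the tip by 1.17, 1.02 and 1.0, and AT5G65380 and AT1G12990 by 0.82 and 0.77.

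In all, limma called 17 of the 35 members, 11 higher in the base and 6 higher in the tip. Over all probe sets 24.5% were called, 13.3% higher in the base and 11.1% in the tip. Of the 7372 single-gene probe sets with a highest group mean of at least 4, 42.9% were called. Of the 7372, 24.1% were called higher in the base and 18.8% in the tip, and the members' share lies near this. Some members reach that mean only under whole FR in the base. EXO and AT1G70985, at touch base means of 1.33 and 1.08, are examples, so these probe sets are not matched to the members on the touch arrays. The lesser base-higher calls were AT5G37710, AT4G16670, AT5G01710 and AT5G10830, at -0.85, -0.68, -0.58 and -0.53. With 1 touch array left out, AT5G10830 was lost each time (adjusted p from 0.0590 to 0.144) except without leaf tip replicate 2, AT5G01710 each time (0.0530 to 0.112) except without petiole base replicate 2, and AT4G16670 without touch petiole base replicate 1 (0.0717) or 2 (0.0525). AT5G65380 was lost without touch petiole base replicate 2 (adjusted p = 0.0626).

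**Figure D5:**
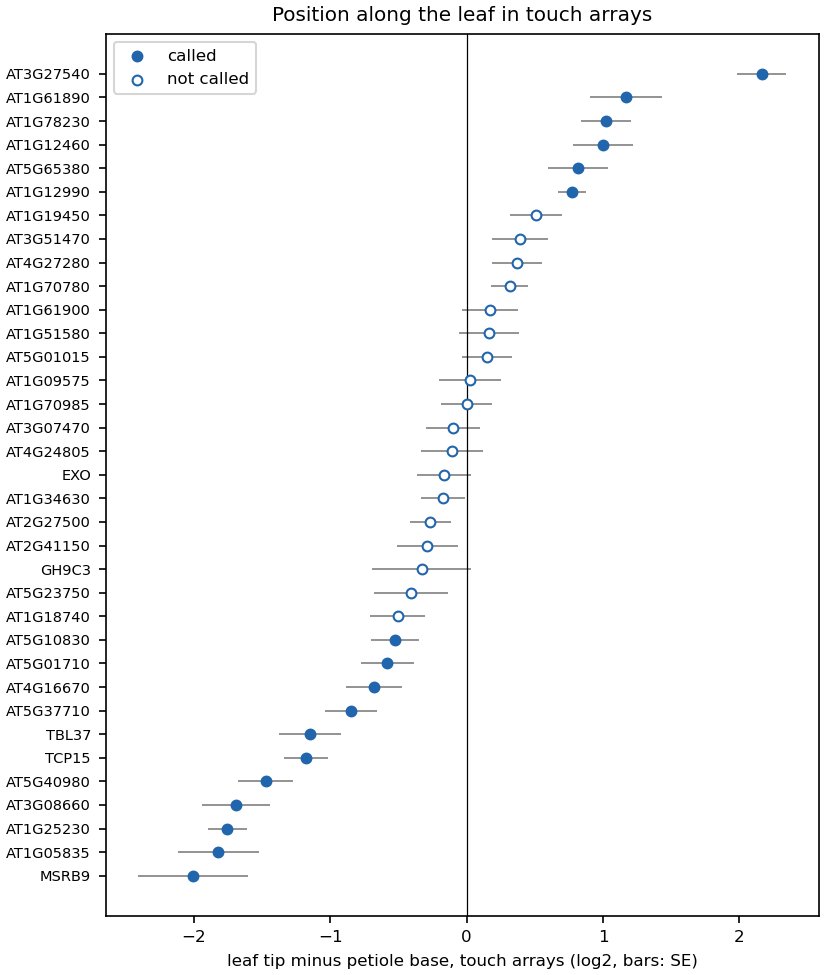
Leaf tip minus petiole base on the touch arrays for the 35 members, as a difference of log2 means with its moderated SE (n = 3 arrays per tissue), filled where limma called it at an adjusted p below 0.05. The differences run from -2.01 for MSRB9 to 2.16 for AT3G27540, on both sides of 0.

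In control plants, whose arrays also entered the rule, 13 members were higher in the base and 4 in the tip by limma, where 15.2% and 13.5% of probe sets were called, 28.7% in all. Among the single-gene probe sets with a highest group mean of at least 4 these shares were 27.4% and 20.5%, 47.9% in all. Of these 17 control calls, those of AT5G37710 and AT5G01015 were lost without control leaf tip replicate 1 and replicate 3, in that order, and that of GH9C3 without control petiole base replicate 1 or 3. AT5G10830 was lost without control petiole base replicate 2 or control leaf tip replicate 3, and AT1G70780 without control petiole base replicate 2 or 3 or control leaf tip replicate 1 or 2. Of the 17 called on the touch arrays, 13 were called in control in the same direction. AT1G05835 and MSRB9 again had the lowest tip minus base differences, at -2.37 (SE 0.30) and -2.14 (SE 0.40). Under whole FR the order of the tissues was different for many members. Of 13 with a higher mean in the control tip than in the control base, 12 had the higher mean in the base under whole FR, and AT3G27540 was the exception, with 4.78 ± 0.38 in the tip and 4.18 ± 0.17 in the base (SD, n = 3). That exchange follows from the limits that chose the members and is given as a description.

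The members lie on all 5 chromosomes, 15 of them on chromosome 1, which holds 25.7% of the single-gene probe sets, with 3, 4, 6 and 7 on chromosomes 2, 3, 4 and 5. AT1G61890 and AT1G61900 are direct neighbours in the reference gene table. Their whole FR differences in the base were 1.39 and 1.22, while on the touch arrays the first was higher in the tip and the second, at a tip minus base difference of 0.17 (SE 0.20, limma adjusted p = 0.613), did not pass the test.

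Other genes came from 11 lists on hormones, shade regulators, cell walls, the cell cycle, starvation and touch. The lists hold 176 loci, of which 34 had a named probe set and none was a member. In the petiole base under whole FR, 13 of these rose and 4 fell in limma, where 7.18% and 6.10% of probe sets did, 13.3% in all. The wall list of expansin and xyloglucan endotransglucosylase genes holds 13 of them, with 8 that rose and 3 that fell. Of those 8, only EXPA9 had a local FR difference below 0.4, at -0.02, with base means of 2.70 ± 0.16 in control, 2.67 ± 0.28 under local FR, 3.11 ± 0.37 under touch and 4.85 ± 0.48 under whole FR (SD, n = 3). It missed the set through the tip limit. The expansin gene EXPB1, with its local FR difference of 0.16, is not on this list and was left out of the set by name. EXPA8, an alpha-expansin gene, had a tip difference of -0.14 but a local FR difference of 0.93 in the base, where it rose by 2.69 under whole FR (SE 0.23, limma adjusted p = 2.162e-08). COB, which codes for a protein that orients cellulose, rose by 0.77 (SE 0.12) and had a local FR difference of 0.44.

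The remaining lists had few measured genes. IAA29 of the 4 auxin response genes, WAG2, the only auxin transport gene measured, and HAT2 and FHL of the 3 shade regulators rose, and each had a local FR difference of at least 0.77. PIF7 fell by 0.47 (SE 0.16), at a limma adjusted p of 0.0499. None of the 4 gibberellin, 2 cell cycle or 4 touch genes was called, nor was EIN3 of the ethylene list or MCCB of the starvation list, and no brassinosteroid gene of the list had a named probe set. LHCB4.2, a light harvesting gene, stood at 7.06 ± 0.24 (SD, n = 3) in the whole FR base against 7.75 ± 0.21 in control, and its part in the members' differences was not tested. In tissue samples such as these, more RNA per cell and more cells of the type that makes it cannot be told apart.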

How the data were processed

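The authors deposited RMA values on the log2 scale, produced in Expression Console for core genes, per the labels. RMA gives all arrays the same distribution of signals, so a change common to all genes would not be seen. The software version is not given in the sources used here. Of 38408 probe sets, 16746 were paired with 1 gene and 758 with several, and 20904 were unnamed. The gene table was that of assembly TAIR10.1. No coordinates or sequences are given.

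A single limma 3.58.1 model (R 4.3.3) held the means of the 8 groups, leaving 16 residual degrees of freedom, and was moderated with eBayes. The 17504 probe sets with a gene were tested two-sided and called when p, adjusted by Benjamini-Hochberg, was under 0.05. SE is the moderated standard error. With 3 arrays per group, their number limits the precision. The fit was tested on simulated data for 3 of the comparisons. It recovered 23.9% to 41.8% of 1.5-fold changes, 73.1% to 80.6% of 2-fold changes and 95.5% to 98.5% of 3-fold changes. Small changes can therefore go uncalled. Whether the replicates came from separate plantings is not given, and p-values measure the spread between these samples. Members and lists were chosen with earlier results of these data known. Named were all members with a symbol, the loci with the largest and smallest differences or the highest control means, those called, and those beside each limit. AT1G51580, AT4G24805, AT1G18740 and AT1G34630, named so that each member appears, and the touch values of AT2G27500 were added after their values were seen. Replicate numbers were not used to pair the samples in the main model, and what they mark is not given. In each comparison of 2 groups at least 1 same-numbered pair correlated at 0.100 or below. Others were higher, up to 0.231 for touch against control in the base, so these values cannot exclude a pairing. The tip against base tests treat the samples as unpaired, although each leaf gave both. The alternatives were a replicate block, cyclic loess, a filter that drops the dimmest 30% of probe sets, a test that includes unnamed probe sets, a robust fit with a variance trend, a fit of only the groups compared, and each array left out. Promoter motifs were not analysed here.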

Additional observations from a re-analysis of the deposited data

How the results depend on the processing

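The size of the set followed its limits. It held 77 genes with a whole FR limit of 1.0 and 9 with 1.5, 14 with a local FR limit of 0.2 and 82 with 0.6, and 61 with no limit on the highest mean. With 1 array left out it held 33 to 44. Among members, calls for touch tip against base were within 1.5 times of 17 under every alternative run. For local FR against touch in the tip the 1 call became 0 with only the groups compared, and 0 to 1 with 1 array left out. For touch against control the members called were 0 to 2 in the base with 1 array left out, and in the tip 0 with only the groups compared and 0 to 1 with 1 array left out. For local FR against control in the tip they were 1 with all probe sets, 1 with the variance trend, 0 with only the groups compared and 1 to 2 with 1 array left out. The cause of these losses was not tested, beyond the fewer arrays that each such fit has. Over all probe sets, local FR against touch in the tip gave 242 calls, 418 with all probe sets, 118 with only the groups compared and 136 to 222 with 1 array left out. Touch in the base gave 37, 62 with the replicate block, 85 with the trend, 0 with only the groups compared (1695 at an unadjusted p under 0.05) and 0 to 483 with 1 array left out. Touch in the tip gave 43, 0 with only the groups compared (1308 at an unadjusted p under 0.05) and 16 to 53. Local FR in the tip gave 359, 556 with all probe sets, 126 with only the groups compared and 213 to 314. The touch effect differed between tissues for 0 probe sets in limma (1507 at an unadjusted p under 0.05), 3 with the trend and 0 to 21 with 1 array left out, and for none of the members. With all probe sets the counts were 8000 for touch tip against base, in place of 4281, 9725 for control, in place of 5028, and 4266 for whole FR in the base, in place of 2323. No called gene changed sign. The replicate block moved no count of member calls by over 1.5 times. The planned promoter motifs were not run. Of the 17 list genes called for whole FR in the base, 2 lost the call in some processing alternative, in 5 of 101 gene fits. With 1 array left out 2 lost it, in 7 of 102 gene fits. PIF7 was not called with the replicate block (adjusted p = 0.0505).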
